A study of Mus musculus with 18 samples.

Results

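Silenced genes are recorded in cells in part by methylation of cytosines in CG pairs and in part by methylation of the tail of histone H3. Patterns of DNA methylation are copied at replication by Dnmt1, which Uhrf1 guides to newly made strands and which needs the chromatin remodeller Hells for much of the genome, whereas Dnmt3a and Dnmt3b place methyl groups on unmethylated DNA. Polycomb repressive complex 2 (PRC2), formed around the enzyme Ezh2, the mark-reading subunit Eed and the scaffold Suz12, methylates histone H3 at repressed genes, and in the thymus both systems act while progenitors give up other lineages and become T cells.

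The 8 genes Dnmt1, Uhrf1, Hells, Dnmt3a, Dnmt3b, Ezh2, Eed and Suz12 were followed through all probe sets annotated to one of them and to no other gene, which were 21 of the 22626 probe sets and 8 of the 12393 genes measured. Dnmt3a had 5 probe sets, Suz12 had 6, Dnmt1, Dnmt3b, Uhrf1 and Eed had 2 each, and Hells and Ezh2 had 1 each. RNA came from thymocytes of C57BL/6 mice sorted as lineage negative, namely early thymic progenitors (ETP, CD44+ CD25- c-kit+) and the double negative stages DN2 and DN3 that follow them, with DN3 sorted as CD44- CD25+. Each stage was taken from adult females of 4 to 6 weeks and from fetuses labelled as E14.5 (days of embryonic life), which gave 6 groups of 3 arrays (Affymetrix mouse genome arrays) and 18 arrays in all. The methods place the fetuses a day later than the labels do. The labels name no transgene, deletion or treatment in any group. The arrays are labelled biological replicates, but RNA of several sorts was pooled for each array, of more sorts in adult than in fetal arrays. The methods call the arrays technical replicates, so that the p-values measure the spread between these pools and not between animals. Values are log2 intensities centred on the median of the probe set over the 18 arrays. They hold differences and no levels, and therefore neither the level of one gene against another nor whether a gene was detected at all could be read from them.

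The stage markers followed the labels by group means. From adult ETP to adult DN3 9 of 11 rose and 2 fell, against 6.8% and 6.09% of all genes. Adult DN3 replicate 3 followed its label only in part. Its Cd44 stood at -0.86 against -7.97 and -7.84 in replicates 1 and 2, and against -0.97 to 0.44 in adult DN2. Its Kit stood at -0.003 against -2.58 and -2.09, whereas its Ptcra (3.19) was high as in replicates 1 and 2 (4.63 and 4.05). Adult DN3 replicates 2 and 3 stood apart, with Xist at -11.28 and -11.34 against 1.59 in replicate 1, although all adult arrays are labelled female. The Y-linked Uty stood at 1.59 and 1.61 on these 2 arrays, against at most 0.23 on all others. Y-linked Eif2s3y (1.29 and 1.15) and Kdm5d (1.22 and 1.10) lay near adult ETP replicate 3 (1.09 and 1.11). Results on adult DN3 are therefore also given without adult DN3 replicates 2 and 3 where they matter. Adult ETP arrays were high in a list of dendritic cell genes (H2-Aa, H2-Ab1, H2-Eb1, Cd74, Itgax and Flt3). The mean over these 6 genes was 4.55 to 5.73, against 1.10 to 1.24 in fetal ETP and -0.12 to 0.53 in adult DN2 and DN3. The paper on these data counts Flt3 among genes of early progenitors or stem cells. Markers of myeloid cells (10 genes) stood at 2.32 to 3.68 in adult ETP and at 2.21 to 2.43 in fetal ETP. Markers of natural killer cells (5 genes) stood at 1.18 to 1.40 in adult ETP and at 1.04 to 1.64 in fetal ETP. On the DN2 and DN3 arrays they lay between -0.48 and 0.12. Markers of erythroid cells (6 genes) lay between -0.06 and 1.64 on fetal arrays and between -0.09 and 0.01 on adult arrays. Among them Hbb-y differed by replicate number, at 0.04, 0.01 and -0.07 on replicate 1 of fetal ETP, DN2 and DN3. On fetal replicates 2 and 3 it stood at 2.35 to 5.97. Before the sort cells bearing CD11b, NK1.1 or TER119 had been depleted, per the methods. The part of other cells in the differences below was not tested. In sorted bulk samples fewer cells of a type and less RNA per cell cannot be told apart.

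Differences count as called here where they reached 1.8-fold and limma's p, adjusted by Benjamini-Hochberg over all probe sets, was under 0.05. For each gene a lead probe set was taken, the most variable of those whose name marks no cross-hybridization. Since variable probe sets were chosen as leads, the other probe sets are given beside them. Over the 6 groups 7 of the 21 member probe sets were regulated by limma's F test, against 16.8% of all probe sets. They were 3 of 5 for Dnmt3a, both for Dnmt3b and both for Uhrf1, whereas no probe set of Dnmt1, Hells, Ezh2, Eed or Suz12 was.

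**Figure D1:**
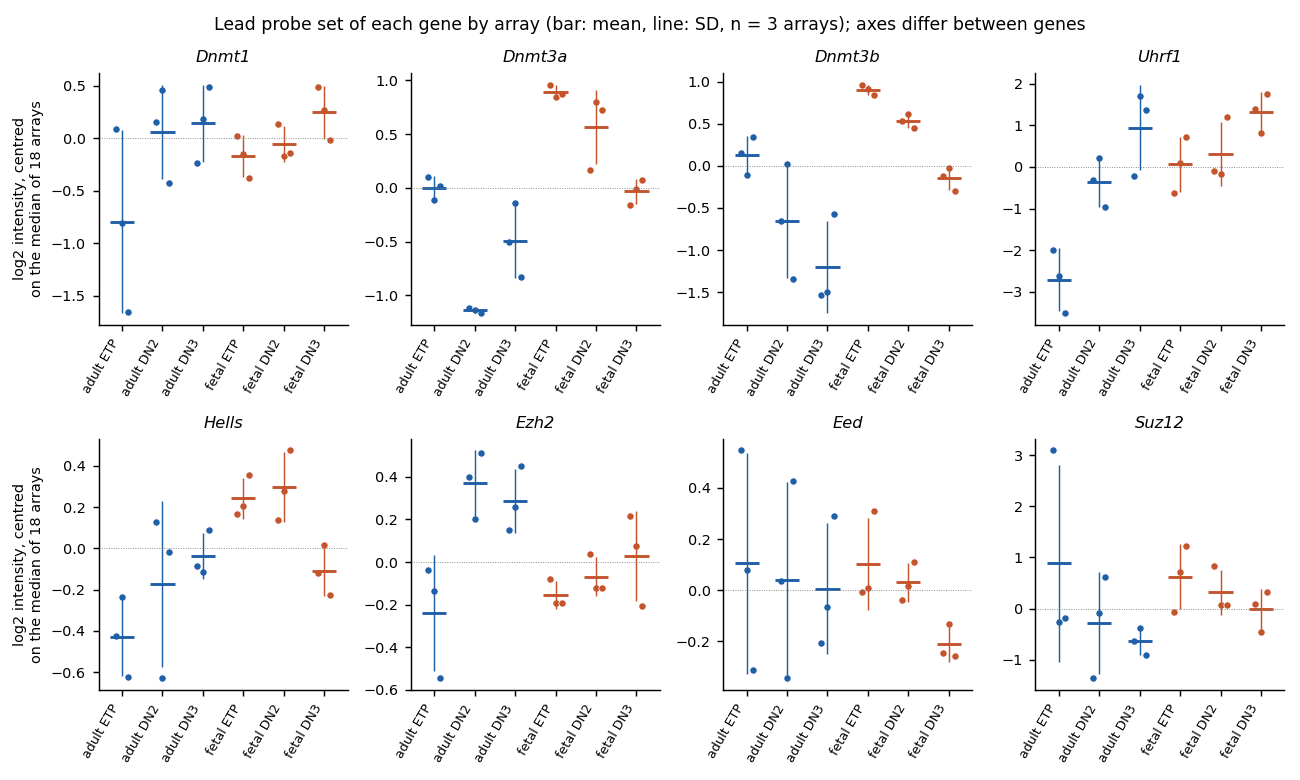
Centred log2 intensity of the lead probe set of each gene by array (points), with the mean (bar) and SD (line) of the 3 arrays of each group; vertical axes differ between genes. Uhrf1 is low in adult ETP alone (-3.51 to -1.99), Dnmt3a is highest in fetal ETP (0.84 to 0.96) and lowest in adult DN2 (-1.16 to -1.12), and Dnmt3b lies higher in fetal than in adult arrays at each stage.

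Promoters are shown because Uhrf1 correlated over the arrays with the mean of DNA replication genes, many of which carry sites for E2F, the factors that switch on genes for S phase. The RefSeq windows (GRCm38.p6) span 300 bases from 250 before to 50 after an annotated start and are printed in the direction of the gene. The E2F core was searched as TTCGCGC, as TTGGCGC, as TTCCCGC and as TTGCCGC on both strands and is written in capitals below. It was found in 9.57% of 32851 promoters, and in 25.4% of the 3837 promoters that hold at least as many CG pairs as that of Dnmt3b (30). Among the members 6 of 13 windows held it, in 5 of 8 genes, which were Uhrf1 (2 of 2 windows), Hells (1 of 1), Ezh2 (1 of 1), Suz12 (1 of 1) and Dnmt1 (1 of 3). None of the 4 windows of Dnmt3a and Dnmt3b held these letters, nor did the window of Eed. The windows printed lie at chr17:56304063-56304362 (plus strand) for Uhrf1, chr19:38930740-38931039 (plus) for Hells, chr6:47594981-47595280 (minus) for Ezh2, chr12:3806910-3807209 (plus) for Dnmt3a and chr2:153649199-153649498 (plus) for Dnmt3b.
Uhrf1: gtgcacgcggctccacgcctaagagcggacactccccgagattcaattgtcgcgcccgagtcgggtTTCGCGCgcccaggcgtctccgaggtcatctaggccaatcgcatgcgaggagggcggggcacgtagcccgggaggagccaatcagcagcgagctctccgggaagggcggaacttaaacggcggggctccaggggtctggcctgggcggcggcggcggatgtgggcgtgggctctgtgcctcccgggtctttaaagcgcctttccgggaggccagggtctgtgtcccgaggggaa
Hells: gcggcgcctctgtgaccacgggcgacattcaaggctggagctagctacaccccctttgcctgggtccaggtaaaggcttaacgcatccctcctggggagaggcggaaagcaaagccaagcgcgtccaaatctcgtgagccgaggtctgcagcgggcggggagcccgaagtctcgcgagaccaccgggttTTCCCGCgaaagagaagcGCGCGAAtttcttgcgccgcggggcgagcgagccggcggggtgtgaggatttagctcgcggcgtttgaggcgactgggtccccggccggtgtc
Ezh2: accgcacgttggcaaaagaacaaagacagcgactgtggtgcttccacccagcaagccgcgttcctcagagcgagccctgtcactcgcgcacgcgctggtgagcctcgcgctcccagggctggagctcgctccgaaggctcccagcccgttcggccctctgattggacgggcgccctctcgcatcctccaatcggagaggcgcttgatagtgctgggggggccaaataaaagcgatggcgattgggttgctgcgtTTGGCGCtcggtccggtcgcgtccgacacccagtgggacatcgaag
Dnmt3a: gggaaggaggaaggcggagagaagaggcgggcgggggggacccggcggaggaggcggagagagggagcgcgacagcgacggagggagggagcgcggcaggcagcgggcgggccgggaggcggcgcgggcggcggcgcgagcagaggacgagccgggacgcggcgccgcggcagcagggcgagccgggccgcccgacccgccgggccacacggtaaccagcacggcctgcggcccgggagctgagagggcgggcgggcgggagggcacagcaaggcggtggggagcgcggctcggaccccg
Dnmt3b: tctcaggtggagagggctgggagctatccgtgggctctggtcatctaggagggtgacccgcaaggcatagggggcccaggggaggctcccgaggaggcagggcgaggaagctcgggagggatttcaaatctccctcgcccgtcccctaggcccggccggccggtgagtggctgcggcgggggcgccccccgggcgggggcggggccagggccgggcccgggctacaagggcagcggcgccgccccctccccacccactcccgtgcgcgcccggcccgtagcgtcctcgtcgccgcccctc
The core began at position -184 from the start in Uhrf1, at -61 and -43 in Hells and at 4 in Ezh2. The Dnmt3a window held 47 CG pairs and the Dnmt3b window 30, against 33 in Uhrf1, 34 in Hells, 31 in Ezh2 and a median of 7 over all promoters, so the 2 printed windows without the core were also rich in CG. CCAAT, the letters bound by the factor NF-Y, occurred in 37.4% of all promoters, 2 times in the printed Uhrf1 window and 3 times in that of Ezh2, and in none of the windows of Dnmt3a, Dnmt3b or Hells. TTTGAA, the cell cycle homology region, occurred in 17.9% of all promoters and, of the 5 printed windows, in that of Dnmt3b. These are matches of letters and no evidence of binding.

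Of the maintenance genes, Uhrf1 was lower in adult ETP than in every other group. Its lead probe set 1415811_at stood at -1.99, -2.62 and -3.51 on the adult ETP arrays, at -0.32, 0.21 and -0.97 in adult DN2 and at -0.22, 1.71 and 1.36 in adult DN3. Fetal ETP arrays stood at -0.62, 0.09 and 0.72, fetal DN2 at -0.09, -0.17 and 1.20, and fetal DN3 at 1.39, 0.81 and 1.76. The 3 adult ETP arrays lay below all other arrays, and among the remaining groups fetal DN3 lay wholly above fetal ETP and adult DN2. Uhrf1 was 6.81-fold higher in fetal than in adult ETP (log2 difference 2.77 ± 0.58 SE, adjusted p = 0.00782, limma). In this comparison 2 of the 21 member probe sets were called, against 8.49% of all. Uhrf1 rose 5.09-fold from adult ETP to DN2 (2.35 ± 0.58, adjusted p = 0.0251) and 12.6-fold from adult ETP to DN3 (3.65 ± 0.58, adjusted p = 0.000825). The second probe set, 1415810_at, moved alike (r = 0.87 over 18 arrays, which share their groups), with rises of 1.02 ± 0.17 to DN2 and 1.14 ± 0.17 to DN3 on the log2 scale, and its higher value in fetal ETP (0.63, adjusted p = 0.0306) stayed below 1.8-fold.

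No step of Uhrf1 between fetal stages was called. From fetal ETP to fetal DN3 the lead probe set differed by 1.26 log2 (95% interval 0.00 to 2.51, adjusted p = 0.312), and from fetal ETP to fetal DN2 by 0.25 (adjusted p = 0.954). The other probe set, 1415810_at, stood at -0.45 to -0.16 in fetal ETP, at -0.04 to 0.09 in DN2 and at 0.26 to 0.55 in DN3. Its means were -0.32, 0.03 and 0.42. These groups did not overlap, as in 10.7% of all probe sets from ETP to DN2, 16.3% from DN2 to DN3 and 28.7% from ETP to DN3. In the lead, fetal and adult cells were not shown to differ at DN2 (0.67, interval -0.58 to 1.93) or at DN3 (0.37, -0.88 to 1.62). The change of the fetal minus adult difference from ETP to DN3 was -2.40 ± 0.82 and was not called (adjusted p = 0.190), so that the differences at ETP and DN3 were not shown to be unequal. In order of group means, fetal DN3 (1.32) came before adult DN3 (0.95), fetal DN2 (0.32), fetal ETP (0.06), adult DN2 (-0.36) and adult ETP (-2.71), and only the last neighbours differed by a call. Without both adult DN3 arrays low in Xist the rise from adult ETP to DN3 was 2.48 (adjusted p = 0.0596) and no longer called, and a fit of only the 6 arrays compared ended the calls of the lead at fetal minus adult ETP (adjusted p = 0.0580) and from adult ETP to DN2 and DN3. The rise to adult DN2 was also lost without adult ETP replicate 2 or 3 or adult DN2 replicate 1 or 2 (1.95 to 2.71 over all alternatives), and that of 1415810_at without adult DN2 replicate 2 (0.81) and in the fit of the 6 arrays alone (adjusted p = 0.165).

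Some genes of DNA replication were, like Uhrf1, called lower in adult ETP. Of 24 measured, 8 were called in fetal against adult ETP, all of them higher (median 0.72 log2, against 0.07 over all genes and 6.16% of all genes called higher), and 10 rose from adult ETP to adult DN2 while none fell (median 0.91, against 3.86% of all genes called higher). From adult DN2 to DN3 none was called, and their median of -0.17 was opposite in sign to the difference of the Uhrf1 lead (1.31, not called). Among them the ribonucleotide reductase subunits Rrm1 and Rrm2, which make DNA precursors, were higher in fetal ETP by 2.34 and 1.71 log2, and cyclin E1 (Ccne1), which drives entry into S phase, by 2.46. Leaving out single arrays gave 5 to 12 called genes at ETP, with 5 without adult ETP replicate 2 or 3 or fetal ETP replicate 1 or 2, and 7 to 14 from adult ETP to DN2, and fits of the 6 arrays alone gave 4 and 1. Of 15 mitosis genes, 8 were called in the same comparison, all higher in fetal cells, but 3 to 4 without adult ETP replicate 2 or 3 or fetal ETP replicate 1 or 2 and 1 in a fit of the 6 arrays alone. No replication or mitosis gene was called between fetal stages. The mean of the replication list was -1.07 to -0.56 on the adult ETP arrays and -0.32 to 0.31 on all others. Over the 18 arrays it correlated with the lead probe set of Uhrf1 at r = 0.79, of Dnmt1 at 0.74, of Ezh2 at 0.62 and of Hells at 0.52, and with those of Eed at 0.10, Dnmt3b at -0.13, Dnmt3a at -0.17 and Suz12 at -0.18. After the group means were removed the values were 0.66 for Uhrf1, 0.62 for Dnmt1, 0.48 for Ezh2 and 0.20 for Hells, and 0.66 for Eed, 0.49 for Suz12, 0.32 for Dnmt3b and -0.02 for Dnmt3a, so that within groups the genes were not ordered as over all arrays. The arrays share their groups, and the part of cell cycling in the Uhrf1 differences was not tested.

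**Figure D2:**
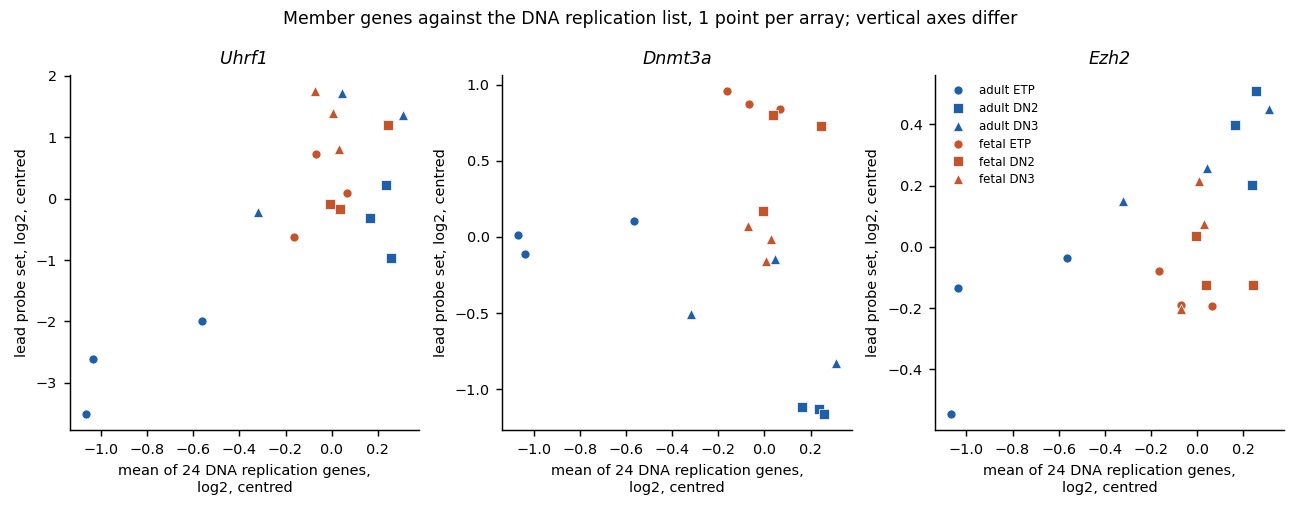
Lead probe sets of Uhrf1, Dnmt3a and Ezh2 (vertical, centred log2) against the mean of 24 DNA replication genes (horizontal, centred log2), 1 point per array. The 3 adult ETP arrays are low on both axes for Uhrf1. For Dnmt3a the highest arrays are those of fetal ETP (0.84 to 0.96) and the lowest those of adult DN2 (-1.16 to -1.12). The replication means of these 2 groups are -0.16 to 0.07 and 0.16 to 0.26, against -1.07 to -0.56 in adult ETP.

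Dnmt1, the maintenance methyltransferase itself, was not called in any of the 9 comparisons between stages or ages. Its lead probe set 1422946_a_at stood at 0.09, -0.81 and -1.65 in adult ETP and between -0.43 and 0.49 on all other arrays. Adult ETP replicate 1 therefore lay among the other groups and replicates 2 and 3 below them. The difference between fetal and adult ETP was 0.63 (95% interval -0.14 to 1.39, adjusted p = 0.179). The other probe set, 1435122_x_at, whose name marks possible cross-hybridization, went the other way at -0.70 (adjusted p = 0.0927), and the pair correlated at only r = 0.16.

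Hells stood at -0.43, -0.23 and -0.62 in adult ETP and at 0.17, 0.21 and 0.36 in fetal ETP, without overlap. The difference passed the adjusted p (0.67 ± 0.17, adjusted p = 0.0206) but at 1.59-fold missed the 1.8-fold limit. Non-overlap of the groups was common in this comparison, at 60.5% of all probe sets and 9 of the 21 member probe sets. At DN2 Hells stood at 0.14, 0.28 and 0.48 in fetal and at 0.13, -0.63 and -0.02 in adult arrays (0.47, adjusted p = 0.166), and at DN3 the difference was -0.07 (interval -0.43 to 0.29).

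Of the de novo enzymes, Dnmt3a was higher in fetal than in adult cells at ETP and DN2 in its lead probe set, and no call was made there in its other 4. Probe set 1423064_at stood at 0.10, -0.11 and 0.01 in adult ETP, at -1.12, -1.13 and -1.16 in adult DN2 and at -0.50, -0.15 and -0.83 in adult DN3. On the fetal arrays it stood at 0.96, 0.84 and 0.88 in ETP, at 0.17, 0.80 and 0.73 in DN2 and at -0.16, -0.01 and 0.07 in DN3. Fetal and adult arrays did not overlap at ETP or DN2, and at DN3 a fetal array reached just into the adult range. The fetal value was 1.85-fold higher at ETP (0.89 ± 0.17, adjusted p = 0.00387) and 3.26-fold higher at DN2 (1.70 ± 0.17, adjusted p = 4.94e-05). At DN2 2 of the 21 member probe sets were called, against 3.44% of all. The call at ETP ended without adult ETP replicate 2 (0.83) and with each array centred on its median (0.82), which brought it below 1.8-fold. At DN3 no member probe set was called by limma (3 at an unadjusted p under 0.05), against 2.77% of all, and the difference of Dnmt3a was 0.46 (interval 0.10 to 0.82, adjusted p = 0.249).

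From ETP to DN2 adult Dnmt3a fell by 1.14 ± 0.17 (adjusted p = 0.000817), and 4 of 21 member probe sets were called in that step, 2 higher and 2 lower, against 6.07% of all. The following difference to adult DN3 was 0.64 and was not called (adjusted p = 0.0880), as no member probe set was (3 at an unadjusted p under 0.05), against 0.928% of all. In fetal cells the step from ETP to DN2 was -0.33 (adjusted p = 0.951), where again no member was called (3 at an unadjusted p under 0.05) against 0.972% of all, nor was any from fetal DN2 to DN3 (5 at that level), against 2.47%. Over the whole fetal path from ETP to DN3 Dnmt3a fell by 0.92 ± 0.17 (adjusted p = 0.00321), and 3 member probe sets were called, all lower, against 5.45% of all. In order, fetal ETP (0.89) and fetal DN2 (0.57) came before adult ETP (0.00), fetal DN3 (-0.03), adult DN3 (-0.49) and adult DN2 (-1.14), and no pair of neighbours differed by a call. Fetal ETP stood 2.03 log2 above adult DN2, the widest gap of its group means, and 4 member probe sets, all of Dnmt3a and Dnmt3b, were called between these groups against 4.61% of all.

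The 5 Dnmt3a probe sets differed in their patterns. Probe set 1423065_at fell from fetal ETP to DN3 by 1.13 (adjusted p = 0.00206), and its difference between fetal and adult ETP was 0.58 (adjusted p = 0.0705). Probe set 1460324_at was highest in adult ETP, at 1.07, 1.35 and 0.77 against 0.73, 0.05 and 0.68 in fetal ETP, a difference of -0.57 (adjusted p = 0.115), opposite in sign to the lead. It fell from adult ETP by 1.42 to DN2 (adjusted p = 0.00147) and by 1.04 to DN3 (adjusted p = 0.00682), the latter not called without both adult DN3 arrays low in Xist (adjusted p = 0.0967). The probe sets 1423063_at and 1423066_at were not regulated. Correlations between the 5 lay between 0.20 and 0.67 over the 18 arrays. With the mean of all 5 in place of the lead, the fetal minus adult difference was 0.24 at ETP and 0.45 at DN2 and neither was called, and the fetal difference from ETP to DN3 was -0.73, below 1.8-fold, whereas the fall from adult ETP to DN2 was called (-0.97, adjusted p = 0.00173). The mean of each of the 5 was lower in adult DN2 than in adult ETP.

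**Figure D3:**
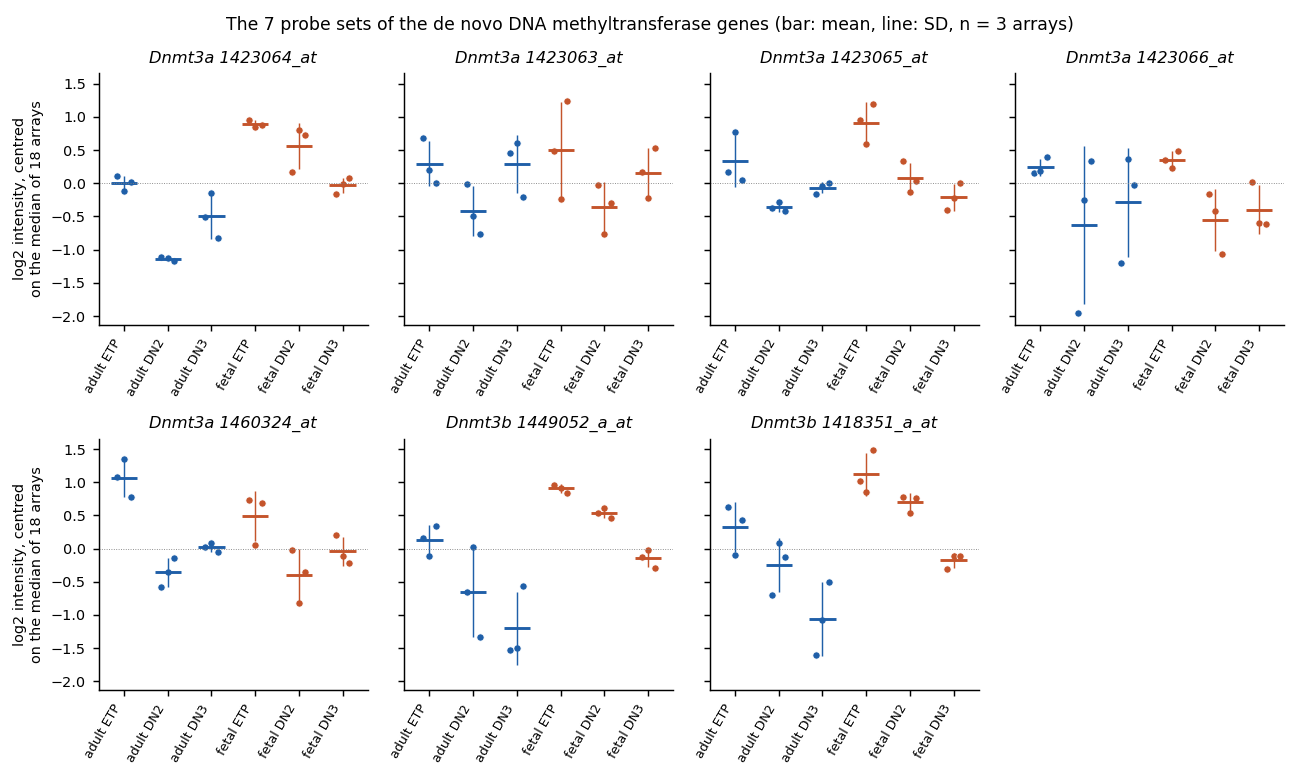
Centred log2 intensity of the 5 Dnmt3a and 2 Dnmt3b probe sets by array (points), with mean (bar) and SD (line) of 3 arrays per group on a shared axis. Fetal arrays lie above adult arrays at ETP and DN2 in 1423064_at and at every stage in both Dnmt3b probe sets, but in 1460324_at adult ETP is the highest group.

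Dnmt3b, the other de novo enzyme, fell from ETP to DN3, in both probe sets in adult and in 1 of 2 in fetal cells, and its probe sets ran together (r = 0.91 over 18 arrays). The lead probe set 1449052_a_at stood at 0.16, -0.11 and 0.34 in adult ETP, at -0.65, 0.02 and -1.34 in adult DN2 and at -1.54, -1.50 and -0.57 in adult DN3. Fetal arrays stood at 0.96, 0.91 and 0.84 in ETP, at 0.53, 0.62 and 0.46 in DN2 and at -0.12, -0.02 and -0.29 in DN3. Each fetal group lay wholly above the adult group of its stage, and the 3 fetal groups did not overlap each other. Between fetal groups such separation was seen in 10.7% of all probe sets from ETP to DN2, 16.3% from DN2 to DN3 and 28.7% from ETP to DN3. From adult ETP to DN3 Dnmt3b fell by 1.33 ± 0.30 (adjusted p = 0.00836), and probe set 1418351_a_at fell by 1.38 ± 0.28 (adjusted p = 0.00452). In this comparison 5 of 21 member probe sets were called, against 10.8% of all. From fetal ETP to DN3 probe set 1418351_a_at fell by 1.30 ± 0.28 (adjusted p = 0.0107), and the lead differed by -1.05 (adjusted p = 0.0544). The SD of the lead was 0.06 to 0.14 in the fetal groups and 0.23 to 0.68 in the adult groups, whereas limma used 1 spread for all groups. The fetal call ended without fetal ETP replicate 3 or fetal DN3 replicate 1 (adjusted p up to 0.0564), and both adult calls ended in a fit of the 6 arrays alone (adjusted p = 0.0907 and 0.109).

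Fetal minus adult differences of the Dnmt3b lead were 0.77 at ETP (adjusted p = 0.109), 1.19 at DN2 (adjusted p = 0.0395) and 1.06 at DN3 (adjusted p = 0.0911), so that only DN2 was called. When the replicate number entered as a block the call at DN2 ended (adjusted p = 0.0578), as it did without adult DN2 replicate 1 or 3 or any of the 9 fetal arrays in turn, with values of 0.85 to 1.74 over all alternatives. Probe set 1418351_a_at differed by 0.79, 0.94 and 0.88 at the 3 stages without a call, and its arrays also did not overlap between ages at any stage. Such non-overlap was seen in 60.5% of all probe sets at ETP, 14% at DN2 and 17.5% at DN3. With the mean of both probe sets the difference at DN3 was 0.97 and was called (adjusted p = 0.0432). Without both adult DN3 arrays low in Xist, 1418351_a_at differed by 1.43 between fetal and adult DN3 (adjusted p = 0.0270), though a single array then stood for adult DN3 and was assumed to vary like the other groups.

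The fetal minus adult difference itself changed between stages for 1 member probe set. For Dnmt3a 1423064_at it was 1.70 at DN2 and 0.46 at DN3, a change of -1.24 ± 0.24 (adjusted p = 0.0329), where 0.548% of all probe sets were called. The call ended with the replicate block (adjusted p = 0.0566), with only the 12 arrays concerned (adjusted p = 0.163) and without any single array other than adult ETP replicates 1 and 2, adult DN3 replicate 3 and fetal DN2 replicate 1, and the change was between -1.44 and -1.07 throughout. From ETP to DN2 the change was 0.81 (adjusted p = 0.219). No member was called for the change from ETP to DN2 (0.796% of all; 4 members at an unadjusted p under 0.05) or from ETP to DN3 (2.49%; 3 members). For the Dnmt3b lead the changes lay between -0.14 and 0.42, and none was called.

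**Figure D4:**
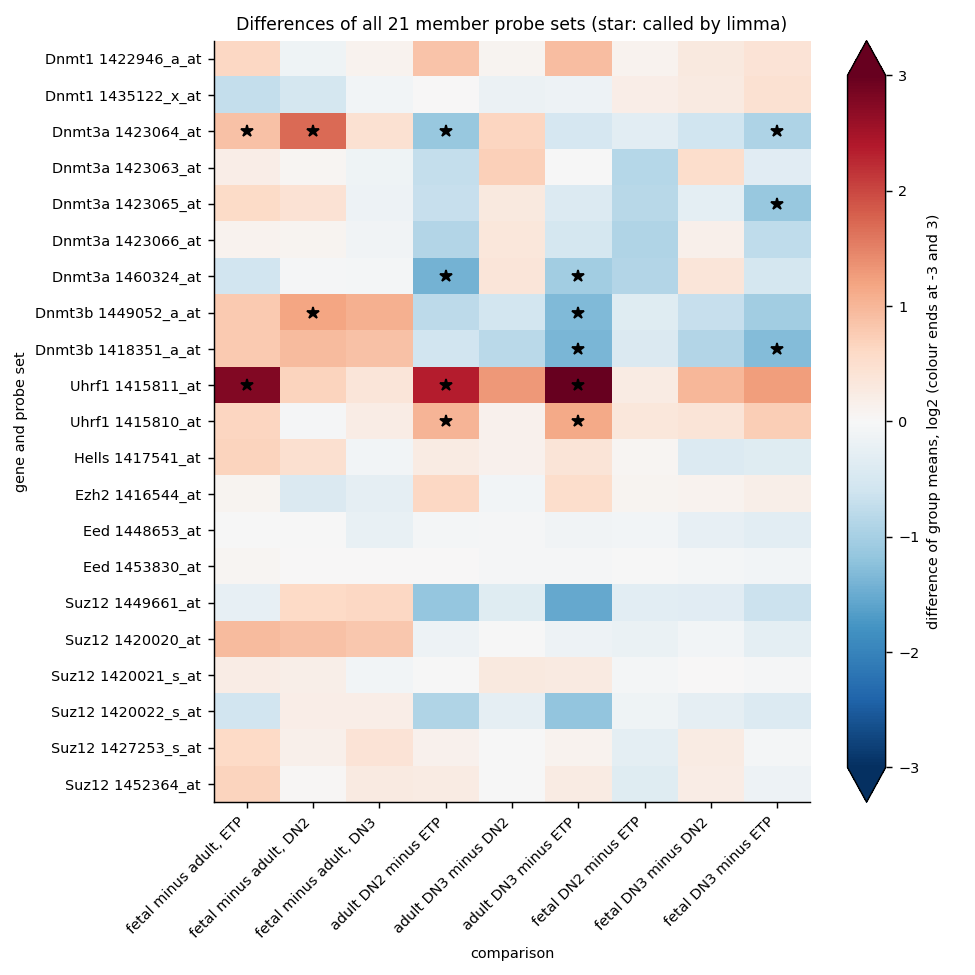
Differences of group means (log2, colour) of the 21 member probe sets in 9 comparisons, with a star where limma called the difference. Stars fall on Dnmt3a, Dnmt3b and Uhrf1 probe sets, and the 6 rows of Suz12 and 2 of Eed carry none.

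Ezh2, the catalytic subunit of PRC2, was higher in adult DN2 and DN3 than in adult ETP, though by less than 1.8-fold. Probe set 1416544_at stood at -0.04, -0.13 and -0.55 in adult ETP, at 0.40, 0.20 and 0.51 in adult DN2 and at 0.15, 0.26 and 0.45 in adult DN3. Adult ETP did not overlap with either later stage, as was seen in 14.2% of all probe sets for DN2 and 22.8% for DN3. The differences were 0.61 ± 0.14 to DN2 (1.53-fold, adjusted p = 0.0147) and 0.53 ± 0.14 to DN3 (1.44-fold, adjusted p = 0.0218). Fetal Ezh2 stood between -0.20 and 0.21 at all stages, and its differences between fetal stages were at most 0.18 (interval -0.11 to 0.48). Between ages the differences were 0.08 at ETP, -0.44 at DN2 (adjusted p = 0.106) and -0.26 at DN3. Ezh2 and Dnmt3a thus ran in opposite directions over the 18 arrays (r = -0.73), whereas Dnmt3a and Dnmt3b ran together (r = 0.74) and so did Uhrf1 and Dnmt1 (r = 0.74). After the group means were removed these values were -0.38, -0.28 and 0.50, so that Dnmt3a and Dnmt3b ran together through the groups they share and not within them.

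Eed, which binds the histone mark, and Suz12, the scaffold, were not called in any of the 9 comparisons. The lead probe set of Eed lay between -0.34 and 0.55 on all arrays, and its differences between ages were 0.00 at ETP (interval -0.46 to 0.46), -0.01 at DN2 and -0.22 at DN3. The second Eed probe set, 1453830_at, spanned only 0.16 log2 over the 18 arrays. For Suz12 adult ETP replicate 1 stood at 3.10 in 1449661_at and at 2.68 in 1420022_s_at, against -0.27 to -0.03 in the other adult ETP arrays, and at -1.76 in 1420020_at. In these probe sets that array lay far from the others of its group. The other 3 probe sets of Suz12 lay between -1.19 and 0.59 on all arrays. Correlations among the 6 reached from -0.28 to 0.97.

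Among partner genes of DNA methylation, taken from a list, 13 of 22 were measured. In fetal against adult ETP 1 of these was called higher and 2 lower (median 0.08), against 6.16% and 4.06% of all genes. From adult ETP to DN2 2 rose and 2 fell, and from adult ETP to DN3 3 rose and 1 fell. Over all genes 3.86% rose and 3.61% fell in the former step and 6.8% and 6.09% in the latter. The 4 calls to DN2 became 2 without adult ETP replicate 2 or adult DN2 replicate 1 or 2 and 1 without adult ETP replicate 3, those to DN3 became 2 without adult ETP replicate 3 and 3 without both adult DN3 arrays low in Xist, and fits of the arrays compared alone left 1 in each step and 0 at fetal minus adult ETP. Mbd2, which binds methylated CG and recruits corepressors, stood at -2.73 ± 0.18 (SD, n = 3) in adult ETP and at -0.33 ± 0.93 in fetal ETP, a difference of 2.40 (adjusted p = 0.00538), while its other probe set differed by 0.42 and was not called. It rose by 2.74 to adult DN2, in 1 of 2 probe sets, and by 3.15 to adult DN3, in both. Cdca7, which acts with Hells, rose by 1.07 to adult DN2 and 1.40 to adult DN3. Tet1, which oxidises methylcytosine, stood at 1.05 ± 0.50 in adult ETP and was lower in fetal ETP by 1.13 on the log2 scale (adjusted p = 0.00671), in 1 of its 2 probe sets.

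Gadd45g, a stress-response gene linked to DNA demethylation, was highest in fetal DN3. It stood at 2.74 ± 0.78 (SD, n = 3) there, at 0.64 ± 0.55 in fetal DN2 (0.01, 1.00 and 0.90 by array) and between -0.17 and 0.02 on all arrays of the other 4 groups. The difference between fetal and adult DN3 was 2.86 (adjusted p = 7.26e-05), and it was called without each array in turn. Its relative Gadd45b was instead high in adult ETP, at 1.20 ± 0.92, and lower by 1.20 in fetal ETP (adjusted p = 0.0206), which was lost when adult ETP replicate 2 or 3 or any of the fetal ETP arrays was left out (-1.70 to -0.80 over the alternatives).

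Of 9 measured PRC2 partners and demethylases, 2 were called in fetal against adult ETP, 1 in each direction. Over all genes 6.16% were called higher and 4.06% lower in this comparison. Ezh1, the alternative catalytic subunit found more in resting cells, was lower in fetal cells at every stage, by 1.94 at ETP (adjusted p = 0.00114), 1.52 at DN2 (adjusted p = 0.0115) and 1.71 at DN3 (adjusted p = 0.00499). It stood at 1.45 ± 0.11, 0.76 ± 0.65 and 1.13 ± 0.48 in adult ETP, DN2 and DN3 and at -0.49 ± 0.43, -0.76 ± 0.16 and -0.59 ± 0.13 in the fetal stages (SD, n = 3 each). The call at DN2 ended without fetal DN2 replicate 2 and in a fit of the 6 arrays alone (adjusted p up to 0.207 over the alternatives). The second of its 2 probe sets differed by at most 0.04 between ages. In 1 of its 2 probe sets Ezh1 was thus called between ages at all 3 stages, while Ezh2 was called at none. Whether the pair differed from each other was not tested. Mtf2, which brings PRC2 to CG-rich DNA, rose from ETP to DN3 in all 4 of its probe sets, by 1.70 in adult (adjusted p = 0.00032) and 1.75 in fetal cells (adjusted p = 0.000349) in the lead. Rbbp4, a histone chaperone shared by PRC2 and other complexes, was at -2.90 ± 0.99 in adult ETP and 3.21 log2 higher in fetal ETP (adjusted p = 0.00427), in 2 of 3 probe sets. From adult ETP it rose by 2.96 to DN2 (adjusted p = 0.00867) and by 3.13 to DN3 (adjusted p = 0.00363), each in 2 of 3 probe sets. Both rises ended in fits of the 6 arrays alone. Its means in adult DN2 (0.06) and DN3 (0.23) lay near that of fetal ETP (0.31). A fit of the 6 arrays alone also ended the calls between fetal and adult ETP of Rbbp4, Mbd2, Tet1 and Pcgf6 (adjusted p = 0.0627 to 0.102).

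Of 15 measured subunits of Polycomb repressive complex 1 (PRC1), which ubiquitinates histone H2A, 3 were called in fetal against adult ETP, all higher, against 6.16% of all genes called higher. These were Rnf2, the catalytic subunit, by 1.51 (adjusted p = 0.000255, 1 of 5 probe sets), Pcgf6, by 2.55 (adjusted p = 0.00409, 1 of 3), and Yaf2, by 1.16 (adjusted p = 0.00405, 1 of 2). At DN2 Rnf2 was higher in fetal cells by 0.98 (adjusted p = 0.0109). From adult ETP to DN3 Rnf2 rose by 0.99 and Pcgf6 by 2.46 (adjusted p = 0.00348 and 0.00376), against 6.8% of all genes. A fit of the 6 arrays alone ended these calls. Without both adult DN3 arrays low in Xist the rises were 0.64 and 1.75. Pcgf6 stood at -2.15 in adult ETP, 0.31 in adult DN3, 0.40 in fetal ETP and 0.12 in fetal DN3. Yaf2, which stimulates the complex, was also higher in fetal cells at DN2 by 1.53 (adjusted p = 0.00114, but 0.0686 and not called in a fit of the 6 arrays alone) and at DN3 by 0.94 (adjusted p = 0.0314), though the call at DN3 ended without adult DN3 replicate 1 or 2 or any of the fetal DN3 arrays (0.57 to 1.30 over the alternatives). Kdm2b, which recruits PRC1 to unmethylated CG-rich DNA, fell by 0.94 from fetal ETP to DN3 (adjusted p = 0.0126), except without fetal ETP replicate 3 or fetal DN3 replicate 1. No PRC1 gene was called from adult ETP to DN2 or between neighbouring fetal stages.

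**Figure D5:**
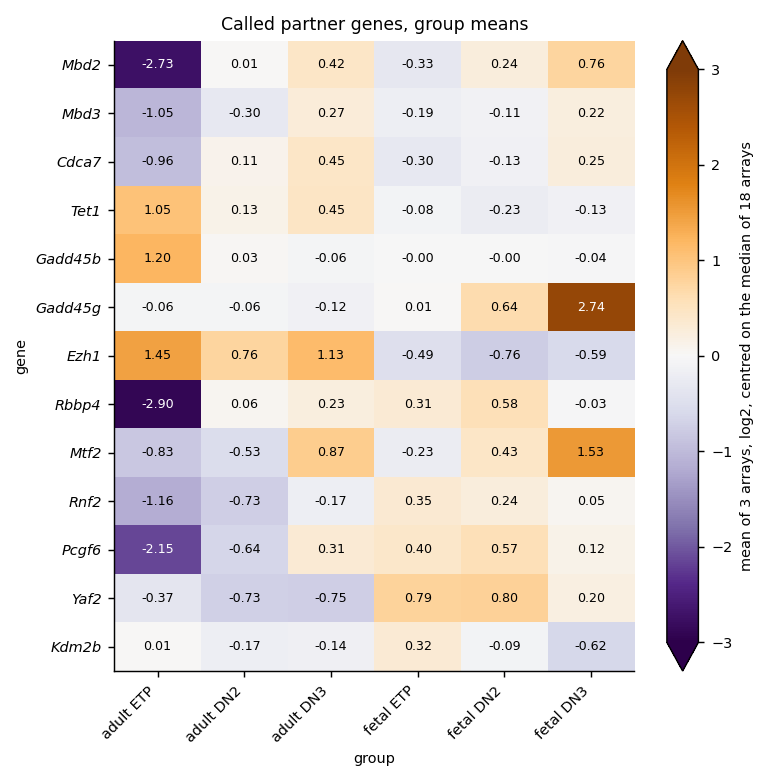
Mean centred log2 intensity (colour and printed value, n = 3 arrays) in the 6 groups of the 13 partner genes called in at least 1 of 9 comparisons. Ezh1 is positive in the adult groups and negative in the fetal groups, Yaf2 is the reverse, and Gadd45g stands out in fetal DN3 (2.74).

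The genes most like each member were taken as the 3 whose lead probe sets had the highest Pearson r with its lead probe set. They are a description, since the 18 arrays share their groups, and other probe sets of a member were not used. For Dnmt3a these were Hmga2 (r = 0.89), a chromatin protein of fetal stem cells, Bex4 (0.89) and Cd160 (0.87). Hmga2 means ran from 3.69 in fetal ETP to -5.83 in adult DN3. For Dnmt3b they were the corepressor Ctbp2 (0.95), Ehd4 (0.95) and Eif4ebp1 (0.94), and for Uhrf1 Abcf2 (0.97), Pcid2 (0.93) and Anapc16 (0.93). Ezh2 was most like Casp2 (0.88), the condensin subunit Ncapg2 (0.87) and the NF-Y subunit Nfyb (0.85). Hells was most like Hspa9 (0.90), Dnmt1 like Gtpbp1 (0.94), Eed like Snx4 (0.82) and Suz12 like Rab2a (0.90).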

How the data were processed

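RNA was labelled with biotin and hybridized to 1-colour arrays of 22626 probe sets, 3 arrays for each of 6 groups. The log2 values were made by the authors with GCRMA, which the submitters' processing notes name without a version, and had been centred on the median of each probe set over the 18 arrays before they were deposited (largest remaining median 5e-07). Every column was assigned to a sample by its label. Of the probe sets, 20380 name 1 gene in the platform annotation, 691 several and 1555 none.

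A linear model with 1 mean per group was fitted to these values over the 18 arrays with limma 3.58.1 (R 4.3.3), without a variance trend (prior degrees of freedom 0.971, median moderated SD 0.229 log2). All 6 groups shared 1 estimate of the spread per probe set. The pooled SD between arrays was unequal, at 0.41 to 0.50 log2 in the adult groups and 0.26 to 0.34 in the fetal groups. P-values were adjusted by Benjamini and Hochberg over all probe sets, and errors of differences are SE. The scripts were tested on simulated data. The number of arrays limits the precision, and an exact permutation test of 3 against 3 arrays could not go below 0.1. All probe sets of the members are reported. The lead of a gene was its most variable probe set over the 18 arrays among those not named _s_at, _x_at or _f_at. Partner genes called in 1 of 9 comparisons could be named, up to 4 called genes of other lists, and the 3 genes most correlated with each member. Members and lists were chosen with earlier results of these data known. Same-numbered arrays deviated together among the fetal groups (correlations 0.312 to 0.597), between adult DN2 and adult DN3 (0.119 to 0.424) and between adult DN2 and the fetal groups (0.125 to 0.374), but not for other pairs of groups, by a limit of 0.1 for each pair. Centred values hold no level, so a filter on dim probes could not be applied, and another background correction needs scanner files, which were not used here.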

Additional observations from a re-analysis of the deposited data

Results flagged for a closer look

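The fetal minus adult difference of Dnmt3a (1423064_at) changed by -1.24 log2 from DN2 to DN3 in limma's interaction test, and it was singled out because the difference between ages was itself unequal between stages. The adult arrays stood at -1.12, -1.13 and -1.16 in DN2 and at -0.50, -0.15 and -0.83 in DN3, and the fetal arrays at 0.17, 0.80 and 0.73 and at -0.16, -0.01 and 0.07. With the mean of all 5 Dnmt3a probe sets the change was -0.44 (adjusted p = 0.760) and was not called.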

How the results depend on the processing

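No called difference of the 8 genes changed its direction under any alternative run. With the replicate number as a block, 1 member probe set was called at fetal minus adult DN2 in place of 2 and 0 for the change from DN2 to DN3 in place of 1, and the block changed no other call of the members. With array weights the counts were 1 for adult DN3 minus DN2, 3 for fetal DN2 minus ETP (all Dnmt3a) and 1 for the change from ETP to DN2, each in place of 0. Centring each array on its median gave 1 at fetal minus adult ETP and 1 at DN2, in place of 2. A fit of only the arrays compared, which estimates the spread from fewer arrays, gave 1 and 1 there, 2 for adult DN2 minus ETP in place of 4, 2 for adult DN3 minus ETP in place of 5, 1 for fetal DN3 minus DN2 in place of 0 and 0 for the change from DN2 to DN3. Without the fold limit 4 were called at fetal minus adult ETP. Without both adult DN3 arrays low in Xist, chosen after seeing the data, the counts were 1 at fetal minus adult DN3, 1 for adult DN3 minus DN2 and 3 for adult DN3 minus ETP. Leaving out each array in turn gave 1 to 3 calls at fetal minus adult ETP, 1 to 2 at DN2 and 0 to 2 at DN3, 3 to 5 for adult DN2 minus ETP, 5 to 6 for adult DN3 minus ETP, 0 to 2 for fetal DN2 minus ETP, 2 to 4 for fetal DN3 minus ETP, 0 to 1 for the changes from ETP to DN2 and from DN2 to DN3, 7 to 8 regulated probe sets, and 0 elsewhere. The rise of Uhrf1 1415811_at from adult ETP to DN2 was lost without adult ETP replicate 2 or 3 or adult DN2 replicate 1 or 2 (highest adjusted p over the alternatives 0.129), and Dnmt3a at fetal minus adult ETP without adult ETP replicate 2. The dim-probe filter and another background correction were not run. The cause of these changes was not tested.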
